A study of Rattus norvegicus with 12 samples.

Results

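Metallothioneins are small, cysteine-rich proteins that bind zinc and copper, buffer the free metal of the cell and take up heavy metals such as cadmium. In rodents the metallothionein genes lie side by side in a cluster, and Mt1 and Mt2A are the widely expressed members. Both are textbook targets of metals, through the zinc-sensing factor MTF-1, and of glucocorticoids, through the glucocorticoid receptor. In the brain they are best known from astrocytes, while Mt3 is the member first described as brain-enriched.

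The entries described here are all assembled genes whose position lies within chr19:11301881-11309062, an interval taken as the position of Mt1 and Mt2A in the rn6 rat assembly. It holds 2 of the 58341 assembled genes in the deposited table, XLOC_025676 and XLOC_025677, and both were tested by the authors. The entries were chosen by position, but the position was selected on the corticosterone and vehicle values of these same entries. Those values are therefore given as a description, and no new test was run on them. No entry of the table carries a gene symbol (0 of 58341), so the names of the genes could not be checked from the data and which entry is which gene is not assigned here. The entries are called by their identifiers.

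Hippocampal RNA came from 12 male Sprague-Dawley rats of 8 weeks, all adrenalectomised, that is, without the adrenal glands that supply circulating glucocorticoid. In the corticosterone group 6 rats received corticosterone, the main glucocorticoid of the rat, at 300 µg/kg, and in the vehicle group 6 rats received vehicle. The hippocampi were taken 1 h later. The labels conflict on the compound, since cortisone stands in the source names of the treated group and corticosterone in its titles and protocol, and the titles are followed here. Each group was deposited as 1 pooled value per assembled gene, in FPKM (fragment counts scaled by transcript length and library size), so the spread between rats is not known and no SD is given. Markers of cell types could not be looked up without symbols, and in whole hippocampus a change in the number of cells of a type and a change in RNA per cell cannot be told apart.

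The RefSeq rat annotation (assembly GRCr8) lists Mt1, Mt2A, Mt3 and Mt4 as consecutive neighbours on chromosome 19, with Nup93 on the Mt1 side. The 250 bases before the annotated start of Mt1 and of Mt2A are shown because the 2 entries at the position of these genes differed in the same direction. Both are from RefSeq on GRCr8, chr19:10832976-10833225 for Mt1 and chr19:10838709-10838958 for Mt2A, minus strand, written 5′ to 3′ and ending at the base before the start of transcription. Capitals mark matches on either strand to TGCACNC or TGCGCNC, the core of the metal response element that MTF-1 binds.
Mt1: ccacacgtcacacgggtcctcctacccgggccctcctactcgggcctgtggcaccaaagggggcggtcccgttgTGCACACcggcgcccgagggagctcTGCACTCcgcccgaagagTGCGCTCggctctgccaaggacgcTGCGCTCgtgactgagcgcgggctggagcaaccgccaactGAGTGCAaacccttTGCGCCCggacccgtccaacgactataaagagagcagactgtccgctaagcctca
Mt2A: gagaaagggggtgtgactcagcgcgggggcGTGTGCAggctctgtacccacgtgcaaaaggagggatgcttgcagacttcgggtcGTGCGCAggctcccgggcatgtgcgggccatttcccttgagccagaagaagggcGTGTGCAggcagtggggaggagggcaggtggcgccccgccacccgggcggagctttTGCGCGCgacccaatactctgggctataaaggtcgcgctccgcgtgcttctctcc

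The Mt1 stretch held 6 such matches, 5 on the strand shown and 1 on the other. The Mt2A stretch held 4, of which 3 were on the other strand. No match overlapped another in either promoter. At least 1 match was found in 20.6% of the 33469 RefSeq promoter stretches of this length, at least 4 in 0.266% and at least 6 in 0.0269%. The stretches were rich in G and C, 66.4% for Mt1 and 66% for Mt2A against a median of 51.2% over all stretches, so these shares compare promoters of unlike base composition. The corresponding stretches of Mt3 and Mt4 held 3 matches and 1 match. In each of the 4 genes a TATAAA sequence, the core of the TATA box, was found once on the strand shown. Neither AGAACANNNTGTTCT, the palindrome bound by the glucocorticoid receptor dimer, nor its arm TGTTCT was found on either strand of the 4 stretches. Over all stretches of this length, 0.012% held the palindrome and 17.5% held the arm. Only exact matches, with N as any base, were counted, so sites that depart from the palindrome or its arm were not looked for. These letters say nothing of sequence outside the 250 bases, nor of what was bound in these rats.

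Both entries had higher values 1 h after corticosterone. XLOC_025676, at chr19:11301881-11303295, had 1.20 FPKM with vehicle and 2.45 FPKM with corticosterone. In the authors' deposited table the corticosterone value was 2.04-fold the vehicle value, or 1.03 on the log2 scale. XLOC_025677, at chr19:11307726-11309062, had 1.83 FPKM with vehicle and 4.18 FPKM with corticosterone. In the authors' deposited table the corticosterone value here was 2.28-fold the vehicle value, or 1.19 on the log2 scale. In both, the corticosterone value was the higher of the 2 pooled values, and whether the rats of the 2 groups overlapped is not known.

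**Figure D1:**
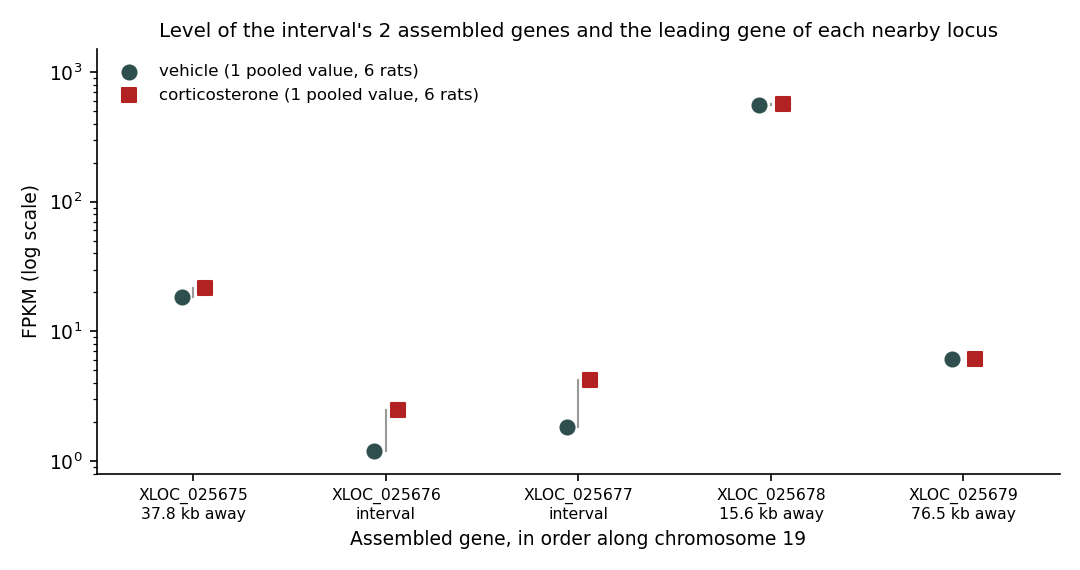
Level in FPKM (log axis) of the 2 assembled genes of the interval and of the most abundant tested gene of each locus within 100 kb, in their order along chromosome 19, with 1 pooled value for vehicle (circles) and 1 for corticosterone (squares). XLOC_025676 and XLOC_025677 are the lowest of the 5 in both groups and have the widest gaps between groups, 2.04-fold and 2.28-fold, while XLOC_025678 stands at 557.4 and 569.1 FPKM.

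By the authors' q-values, both entries were called different and higher with corticosterone (2 of 2, q = 0.0165 for each in the authors' deposited table). Over all tested assembled genes, 148 of 42839 were called at a q of 0.05 or less (0.345%), and 116 were called higher (0.271%). Since the interval was proposed with these calls known, nothing is read from the share. The p behind each call was 5e-05, the smallest in the authors' deposited table and shared by 130 of the 148 calls, so the 2 entries cannot be ranked against most other calls by significance.

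The 2 entries were close in span, and both had higher values with corticosterone. They span 1414 and 1336 bp, are separated by 4431 bp, and each is the only assembled gene at its locus. XLOC_025677 was the more abundant in both groups, at 1.52 times the FPKM of XLOC_025676 with vehicle and 1.70 times with corticosterone. It made up 60.4% of their summed FPKM with vehicle and 63% with corticosterone. Summed, the interval had 3.03 FPKM with vehicle and 6.64 FPKM with corticosterone, 2.19-fold. The log2 fold changes of the 2 entries differed by 0.16, and without a spread between rats this difference has no test. For scale, the leading genes of 7646 pairs of side-by-side loci with up to 10 kb between them differed by a median of 0.11. That is less than the difference between the 2 entries. Those pairs include genes that were not called, so their median is no measure of likeness for 2 called genes. Metallothionein genes have closely similar coding sequences and pseudogene copies, and the sources used here do not give how reads that match several of them were assigned. The split of reads between the 2 entries, and their levels, are therefore uncertain, and whether the entries share reads was not tested.

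The entries were of ordinary abundance for this table. Shares and counts here and below are over assembled genes, not loci, and several assembled genes can share a locus. On chromosome 19 the 1035 tested genes lay at 456 loci, while each of the 2 entries stands alone at its locus. How the entries compare with a background of 1 gene per locus was not computed. With vehicle, 24.6% of tested assembled genes had a lower FPKM than XLOC_025676 and 43.5% a lower FPKM than XLOC_025677. With corticosterone these shares were 54.7% and 71.9%. The median tested gene had 2.15 FPKM with vehicle and 2.17 FPKM with corticosterone, so XLOC_025676 stood below the median with vehicle and above it with corticosterone, and XLOC_025677 did likewise. In absolute terms the differences were 1.25 and 2.35 FPKM.

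Against the whole table the changes were large but not extreme. The median log2 fold change of all tested genes was 0.007. A larger rise than that of XLOC_025676 was found in 385 tested genes (0.899%) and a larger rise than that of XLOC_025677 in 255 (0.595%). Among the 116 genes called higher, 46 rose by more than XLOC_025676 and 38 by more than XLOC_025677. Genes of similar abundance, with a mean FPKM within 2-fold of the entry, mostly changed little. For XLOC_025676 their central range, from the 5th to the 95th percentile, ran from -0.48 to 0.51 on the log2 scale over 24363 genes. For XLOC_025677 it ran from -0.40 to 0.49 over 19586 genes. Both entries lay above these ranges. The position was selected on these same values, so the ranks and ranges only describe the entries and nothing is read from them.

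**Figure D2:**
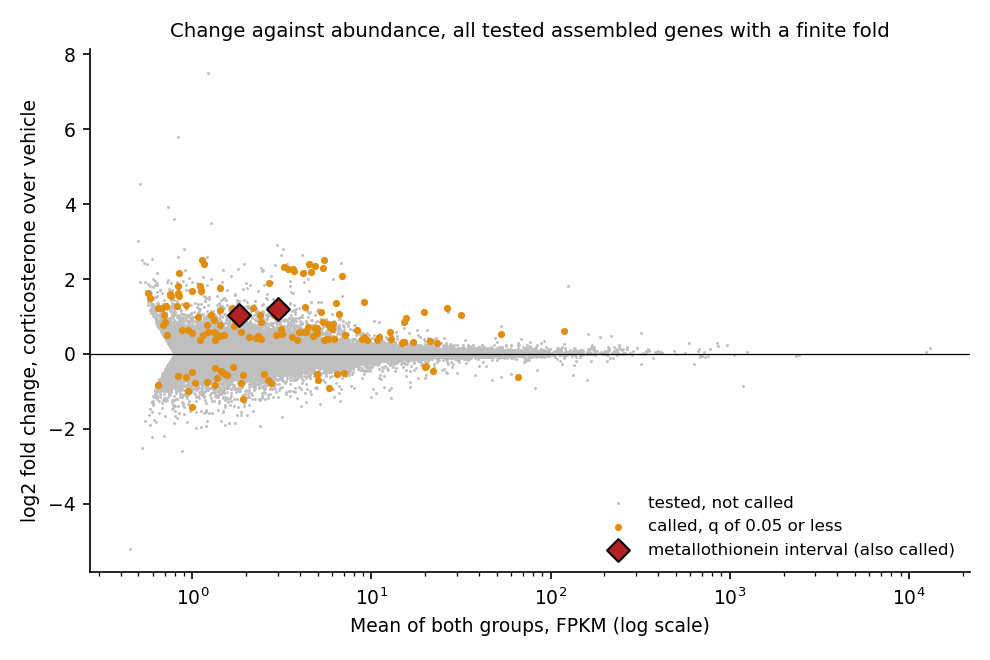
log2 fold change of corticosterone over vehicle (0 is no difference) against the mean FPKM of both groups (log axis) for every tested assembled gene with a finite fold, 1 point per gene. The 2 entries of the interval (diamonds) lie at 1.03 and 1.19, among the called genes of low abundance and below the calls with the largest rise.

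A 2-fold difference at this abundance did not by itself bring a call. Over all tested genes, 417 (0.973%) were at least 2-fold higher with corticosterone, and 50 of them were called. Within 2-fold of the abundance of XLOC_025676, 212 genes reached 2-fold and 192 of these were not called. For XLOC_025677 the numbers were 159 and 139. The smallest called rise in these abundance ranges was 1.28-fold for the first entry and 1.29-fold for the second.

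The assembled genes most like the 2 entries in their pooled values were not called. Likeness was measured as the distance between the pairs of log2 FPKM values, over the 2 pooled groups. Nearest to XLOC_025676 was XLOC_008525 on chromosome 10, with 1.18 FPKM with vehicle and 2.39 with corticosterone, followed by XLOC_055338 on chromosome 9 and XLOC_022629 on chromosome 17. Nearest to XLOC_025677 was XLOC_029038 on chromosome 2, with 1.89 and 4.20 FPKM, followed by XLOC_038424 on chromosome 4 and XLOC_009317 on chromosome 10. In the authors' deposited table all 6 were between 1.93-fold and 2.25-fold higher with corticosterone, their unadjusted p lay between 0.024 and 0.433, and each q was 0.999. Of the 6, 5 shared their locus with other assembled genes, up to 41 in all, and XLOC_022629 stood alone at a locus of 392 bp. With 2 pooled values per gene, this likeness says only that the levels match.

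The calls included 4 other genes of similar span, 3 higher and 1 lower with corticosterone. Of 1161 tested assembled genes spanning 1000 to 2000 bp, a range chosen after the values were seen, 5 were called higher (0.431%), and the 2 entries are among them. Of the other 3 called higher, XLOC_031929 on chromosome 20 was 3.51-fold higher, XLOC_021772 on chromosome 17 was 2.11-fold higher and XLOC_001380 on chromosome 1 was 1.44-fold higher in the authors' deposited table. The gene called lower, XLOC_040934 on chromosome 5, had 25.4 FPKM with vehicle and 18.5 with corticosterone. The authors' deposited table gives this gene a log2 fold change of -0.45 and a q of 0.0165.

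The neighbouring loci were not called. The closest, XLOC_025678 at chr19:11324697-11326710, lies 15.6 kb from the interval and was far more abundant, with 557.4 FPKM with vehicle and 569.1 FPKM with corticosterone. Its fold was 1.02 and its q 0.999 in the authors' deposited table (p = 0.755). With vehicle its FPKM was 304.4 times that of XLOC_025677 and 464 times that of XLOC_025676, and with corticosterone it was 136.1 times that of XLOC_025677. Next on the same side, 76.5 kb away, the locus at chr19:11385599-11452103 held 3 tested genes with log2 fold changes from -0.36 to 0.03, and its leading gene XLOC_025679 had 6.14 FPKM with vehicle and 6.09 with corticosterone. No symbol is paired with these loci, and whether XLOC_025678 is Mt3, which RefSeq lists next to Mt2A, could not be checked.

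On the other side, 37.8 kb away, the locus at chr19:11145915-11264088 held 14 tested genes, of which 13 had a higher value with corticosterone and 0 were called. Its leading gene, XLOC_025675, had 18.5 FPKM with vehicle and 21.5 with corticosterone. The authors' deposited table gives it a fold of 1.16, an unadjusted p of 0.0232 and a q of 0.999. Another gene there, XLOC_025976, had 1.46 FPKM with vehicle and 3.08 with corticosterone. Its fold of 2.12 lay between those of the 2 entries, but its p was 0.519 in the authors' deposited table. In all, 18 tested genes lay within 100 kb of the interval outside it, 15 with a higher value, with a median log2 fold change of 0.13. Of these 15, 13 share the locus just described and are not separate observations. The median log2 fold change over all tested genes was 0.007. The share of all tested genes with a higher value was not counted, so no lean of the region is read from counts of higher values here or below.

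**Figure D3:**
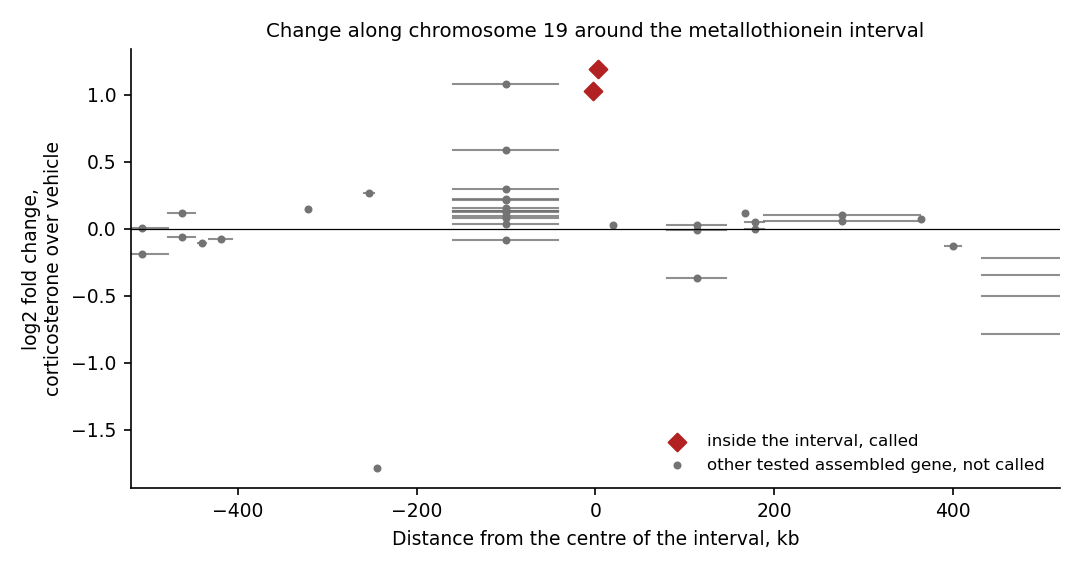
log2 fold change of corticosterone over vehicle (0 is no difference) of the tested assembled genes within 500 kb of the interval, against distance from its centre in kb, where each line spans the locus and the point marks its middle (lines at the edge run on outside the plot). The points of the locus from 433 to 814 kb fall outside the plot. The 2 entries of the interval (diamonds) are the called genes among the 40 tested, and the other 38 have a median of 0.05.

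Over a wider stretch the 2 entries stayed the called ones. Within 500 kb of the interval 38 other genes were tested, 24 of them with a higher value, and their smallest q was 0.634 in the authors' deposited table. On the whole of chromosome 19, 2 of 1035 tested genes were called (0.193%), and both were the entries of the interval. Among the other 1033 there, 22 had an unadjusted p of 0.05 or less and the smallest q was 0.0877 in the authors' deposited table. Of these 1033, 8 had a larger rise than XLOC_025676 and 4 a larger rise than XLOC_025677, and all 8 had a mean of at most 2.27 FPKM. The interval was proposed with its calls known, and the 500 kb stretch was chosen after the values were seen. Nothing is therefore read from the 2 entries being the called ones here.

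Side-by-side calls of this size were few. Of the 7646 pairs of neighbouring loci with up to 10 kb between them, 10 had leading genes that were both called higher (0.131%), and in 3 of the 10 both reached 2-fold. One of the 3 is the pair described here. The second, on chromosome 15, had folds of 3.03 and 3.08, and the third, on the unplaced scaffold chrUn_KL568465v1, had 5.02 and 4.80 in the authors' deposited table. A locus could belong to more than 1 pair, as XLOC_011084 and XLOC_046089 did among the 10. Since the interval was chosen with the values of its 2 entries known, nothing is read from these counts.

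The authors' separate list of different transcripts holds both entries. Of its 122 transcripts 2 lie on chromosome 19, TCONS_00047733 and TCONS_00047734, and each shares both ends with 1 of the 2 entries. Both carry the code 999, as do 101 of the 122, and the sources used here do not give the meaning of the code. The list comes from the authors' own analysis of the same reads, so it is no independent evidence for the calls.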

How the data were processed

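Hippocampal RNA-seq of 12 rats was deposited as a gene table with 1 value per group. The submitters' processing notes name Cuffdiff (2.2.1.3), Cufflinks (2.2.1.0), TopHat (0.9) and Bowtie2 (0.6). Scaling, dispersion model, strand and the assignment of reads with several matches are not given in those notes or the file headers. The notes name build rn5, but the table has 106 entries on scaffolds named KL or AABR07, as in rn6, and its coordinates are printed as given.

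Per the file headers, FPKM values, log2 fold changes, p-values and q-values are the authors' Cuffdiff output, and the test statistic, a score, was not used. The transcript list's score code was used as deposited. As deposited, the log2 fold change sets Control over Cort, and its sign was turned here. It matched the FPKM ratio within 0.001 in 58263 of 58271 entries, the other 8 being marked failed. Called means a deposited q of 0.05 or less. Fragment depth is unknown: among 878 sparse entries at most 3 shared a ratio of values, so whole reads could not be recovered.

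Ranks, abundance ranges, neighbours and motif matches were computed with Python 3.11.15 and pandas 2.3.3, and the ranking and adjustment were tested on simulated data. Named are the 2 entries, tested neighbours within 100 kb (14 tie on one side, so all are summarised) and the 3 most alike genes per entry. Members and lists were chosen with earlier results of these data known. The pathway and marker lists need symbols and matched 0 entries. The short-gene range, the side-by-side pairs, the 500 kb stretch and the motifs were chosen after the values were seen. No replicate was compared, as 0 columns hold single rats.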

Additional observations from a re-analysis of the deposited data

How the results depend on the processing

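The 2 entries met both a limit of 0.10 on q and a change of at least 1.5 times. Their q of 0.0165 and folds of 2.04 and 2.28 fixed this beforehand. Rows that overlap the interval are the same 2. Both were also called with adjustment over the 35995 genes whose mean reached 1 FPKM. Their Cuffdiff p of 5e-05 is the smallest deposited, so that setting had little room to differ. None of these settings is therefore read as a sign of robustness. A q of 0.01 or less left 0 calls, as the smallest q in the table is 0.0165. The log2 fold changes of 1.03 (XLOC_025676) and 1.19 (XLOC_025677) became 0.97 and 1.15 with a pseudocount of 0.1 FPKM and 0.65 and 0.87 with 1 FPKM, which compresses low values, and 1.02 and 1.18 when recentred on all tested genes. Recentring on genes of similar abundance left both within 0.01. The shares of genes with a larger rise, 0.899% and 0.595%, became 0.622% and 0.40% among genes whose mean reached 1 FPKM and 0.78% and 0.48% among genes of similar abundance. The summed rise is the same by construction with 1 row per locus. No paired analysis was possible because the table holds 1 pooled value per group, and leaving out rats was not run for that reason. Depth per rat is unknown, so what genes of 1 to 4 FPKM could show is not bounded here.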
